A study of Homo sapiens with 6 samples.

Results

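The DNA replication and S phase genes described here are 46 genes, chosen by symbol, that code for the proteins that license origins, unwind and copy DNA, join the copied strands, supply nucleotides and repackage the new DNA into chromatin. All 46 were among the 18798 genes of the deposited count table and all 46 had enough counts to be tested. The 6 RNA-seq libraries came from U937, a human line of monocytic cells long kept in culture. In the 3 ΔNSPs clones the genes CTSG, ELANE and PRTN3, which encode the neutrophil serine proteases cathepsin G, elastase and proteinase 3, had been depleted together, and the 3 Control lines carried control plasmids. Both groups were transduced with plasmids and grown in RPMI1640 with 10% fetal bovine serum, glutamine, antibiotics and 500 µg/ml geneticin. No other treatment is named in the labels. Each ΔNSPs library is 1 clone, the labels call the clones independent and the Control samples separate lines, so the p-values below measure the spread between these lines and clones.

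DNA replication starts at origins, where the origin recognition complex, CDC6 and CDT1 load the MCM2-7 ring in G1 phase. On entry into S phase the ring is joined by CDC45 and the GINS complex to become the active helicase, polymerase α with its primase lays down primers, polymerases ε and δ extend the leading and lagging strands, and PCNA holds them on DNA. Many of these genes are transcribed at the G1 to S boundary under the E2F factors, and their RNA is high in proliferating cells such as U937.

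None of the 46 genes was called as changed between the ΔNSPs clones and the Control lines. The test was edgeR's quasi-likelihood test with Benjamini-Hochberg adjustment over the 14797 tested genes. That test called 0.0203% of all tested genes. DESeq2, which called 3.98% of its genes, and limma voom, which called 0.0135%, also called 0 of the 46. At an unadjusted p under 0.05 in edgeR there were 7 of the 46 (15.2%), beside 17.8% of all tested genes and 21.7% of the 7377 tested genes in the same range of mean CPM (read counts relative to the library total, adjusted by TMM factors). Of these 7 genes, 5 were higher in the clones (UHRF1, CDC6, CDC45, RRM2 and FEN1; 9.23% of all tested genes passed in that direction) and 2 were lower (POLD1 and PRIM1; 8.6%). In 12 of the 46 genes (26.1%) the 3 clones and the 3 Control lines did not overlap, beside 23.9% of all tested genes and 27.4% of those in the same CPM range, so the members' counts lay near the background. Among these 12 genes, 10 were higher in the clones (12.2% of all tested genes) and 2 were lower (11.7%).

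The differences were small. Log2 fold changes, ΔNSPs minus Control, ran from -0.46 for POLD1 to 0.47 for UHRF1, with 30 positive and 16 negative. Their median was 0.06, beside 0.002 over all tested genes. The median size of the fold change regardless of sign was 0.13 on the log2 scale, against 0.17 in tested genes of the same CPM range and 0.22 in all tested genes. All 46 of the 95% intervals stayed within 2-fold either way, reaching from -0.84 to 0.82 on the log2 scale, and 33 of 46 stayed within 1.5-fold. The share within 2-fold was 72.6% of all tested genes and 93.2% of those in the same CPM range, where 67.5% stayed within 1.5-fold. A change beyond 2-fold thus lay outside the interval of each member, while differences of the size seen in UHRF1 or POLD1 were not separable from the spread at the adjusted threshold. In bulk RNA, fewer cells in S phase and less RNA per cell cannot be told apart.

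**Figure D1:**
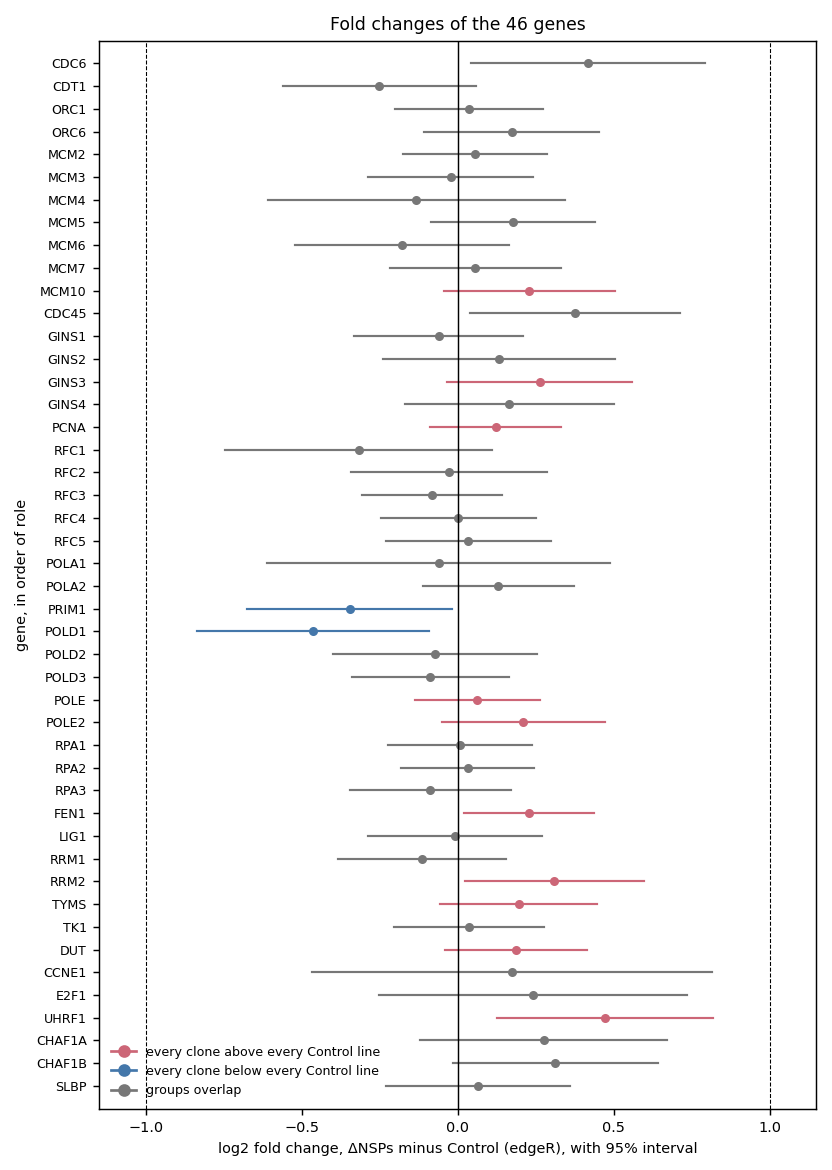
Each point is the edgeR log2 fold change of 1 gene, ΔNSPs minus Control, with its 95% interval; genes are ordered by role and dashed lines mark a 2-fold change. All 46 intervals lie inside the dashed lines, and the lowest and highest estimates are POLD1 at -0.46 and UHRF1 at 0.47.

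The libraries held 11476619 to 13782854 counts, and 3 counts corresponded to 0.214 to 0.26 CPM. CTSG was counted at 1897, 2477 and 2756 CPM in the Control lines and at 136, 111 and 45.3 CPM in clones 1 to 3 (edgeR adjusted p = 0.0215). ELANE was at 971 to 1327 CPM in the Control lines and 1.89 to 41.9 CPM in the clones, and PRTN3 at 147 to 539 CPM and 0.857 to 63.3 CPM. The edgeR adjusted p was 0.145 for ELANE and 0.217 for PRTN3, and that of DESeq2 was 4.4e-05 and 0.21. All 3 targeted genes were lower in every clone and so went with the labels, but edgeR called only CTSG. A gene that edgeR did not call can thus still differ between the groups. The summed level of 10 myeloid markers was 2040 to 2368 CPM in Control and 1968 to 2849 CPM in ΔNSPs. One of them, CD68, was at or below 1.14 CPM in every library. Of the exon bases of CD68, 85.8% are shared with other annotated genes, which makes its values less certain. Some myeloid markers were higher in clones 2 and 3. FCER1G was at 17.9 to 21.7 CPM in Control and at 21.1, 62.5 and 54.6 CPM in clones 1 to 3 (DESeq2 adjusted p = 0.0122). Without clone 1 edgeR called 4 of the 9 tested (44.4%, beside 6.17% of all genes in that fit), FCER1G, ITGB2, LYZ and TYROBP. The other tested markers were not called there. Over all 6 libraries their log2 fold changes were -0.17 for CD4, -0.09 for CEBPA, -0.03 for CD33, -0.01 for LAPTM5 and 0.20 for SPI1. Summed B cell markers were at 46.95 to 85.5 CPM in Control and 26.7 to 67.7 CPM in ΔNSPs. Erythroid and platelet markers, nearly all HBB, were at 74.9 to 135 and 88.2 to 116 CPM, and epithelial markers stayed at or below 1.29 CPM. The part of these markers' differences in the results below was not tested. Over all tested genes, Control lines 2 and 3 were the most alike pair (Pearson r of log2 CPM 0.989), clone 1 was nearer to the Control lines (0.9754 at the lowest) than to clones 2 and 3 (0.953 and 0.959), and Control line 1 was nearer to clones 2 and 3 than the other Control lines were. These correlations are across genes of a library pair and describe likeness only. Values are therefore given below within set A (Control line 1, clones 2 and 3) and set B (Control lines 2 and 3, clone 1). The split was made after these correlations were seen, and each set has 1 library on 1 side. Of the 46 members, 27 had the same sign in both sets. The matching share of all tested genes is not given, so this count does not set the members apart from other genes. Likeness between the sets is thus not a replication. The fit without clone 1 keeps only clones of set A, so its calls do not separate group from library set.

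Upstream sequence was examined because many replication genes are known E2F targets. RefSeq promoter windows (GRCh38.p14, 250 bases before to 50 after the gene start) were present for 40 of the 46 genes. An exact match, on either strand, to 1 of the E2F words TTTCCCGC, TTTGGCGC, TTTCGCGC or TTTGCCGC was found in 20 of these 40 genes (50%), against 6.82% of 9697 tested genes with a window and 3.99% of all 27305 genes with one. The CCAAT word of NF-Y, also on either strand, was present in 24 of 40 (60.0%), beside 42.8% of tested genes. In 22 mitosis genes listed for comparison, 17 had a window. An E2F word stood in 3 of these (17.6%) and CCAAT in 15 (88.2%). Of the further replication genes described below, 32 had a window, with an E2F word in 10 (31.2%) and CCAAT in 18 (56.2%). The windows below, from MCM6, POLA1, PCNA, E2F1 and POLE, show how these words are placed in 5 members with distinct roles. Each gives the 150 bases just before the RefSeq start, 5′ to 3′ on the gene's strand, with the E2F words in capitals. The positions are chr2:135876444-135876593 on the minus strand for MCM6, chrX:24693768-24693917 on the plus strand for POLA1, chr20:5126623-5126772 on the minus strand for PCNA, chr20:33686386-33686535 on the minus strand for E2F1 and chr12:132687343-132687492 on the minus strand for POLE.
MCM6: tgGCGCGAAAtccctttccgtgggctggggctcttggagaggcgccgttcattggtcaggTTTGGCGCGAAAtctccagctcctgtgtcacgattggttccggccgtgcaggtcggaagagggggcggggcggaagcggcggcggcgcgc
POLA1: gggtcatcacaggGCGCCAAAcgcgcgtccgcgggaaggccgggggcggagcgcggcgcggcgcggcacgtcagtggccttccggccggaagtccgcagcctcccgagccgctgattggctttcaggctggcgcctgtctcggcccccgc
PCNA: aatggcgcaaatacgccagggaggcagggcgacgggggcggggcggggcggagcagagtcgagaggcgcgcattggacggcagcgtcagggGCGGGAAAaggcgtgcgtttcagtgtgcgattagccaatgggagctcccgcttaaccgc
E2F1: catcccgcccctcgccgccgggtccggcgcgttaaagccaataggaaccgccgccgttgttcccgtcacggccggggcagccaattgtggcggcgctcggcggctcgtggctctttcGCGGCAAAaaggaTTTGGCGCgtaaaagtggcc
POLE: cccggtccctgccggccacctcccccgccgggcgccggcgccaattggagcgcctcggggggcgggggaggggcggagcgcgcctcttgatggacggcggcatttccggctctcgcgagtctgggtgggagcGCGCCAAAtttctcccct
MCM6 carried 3 matches, at 148, 90 and 86 bases before the start. The nearer pair of these lies on opposite strands and overlaps, so that 1 run of capitals holds both. The first base of the match in PCNA lay 59 bases before the start, in POLA1 137 bases and in POLE 18 bases. The E2F1 window held 2 words, at 33 and 20 bases before its start. A match is a string of letters and not a measured binding site. The 20 genes with a match had a median log2 fold change of 0.09 and the 20 without one 0.04, both close to 0.

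Origin licensing genes did not pass the test in either direction. CDC6, the ATPase that helps load the MCM ring, was counted at 71.3, 57.2 and 46.2 CPM in Control lines 1 to 3 and at 80.8, 70.0 and 82.6 CPM in clones 1 to 3. Control line 1 lay just above clone 2, so the groups overlapped. The log2 fold change was 0.42 ± 0.16 (SE; edgeR adjusted p = 0.25), and it was 0.09 within set A and 0.65 within set B. CDT1, which brings the MCM ring to the origin, was at 135, 136 and 145 CPM in Control and at 139, 102 and 107 CPM in the clones. Clones 2 and 3 were low and clone 1 lay among the Control lines, for a log2 fold change of -0.25 ± 0.13 (edgeR adjusted p = 0.357). ORC1 and ORC6, subunits of the origin recognition complex, had means of 95.8 ± 8.70 and 41.1 ± 5.48 CPM in Control and 98.2 ± 1.93 and 46.3 ± 1.12 CPM in ΔNSPs (SD, n = 3).

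The 6 subunits of the MCM2-7 ring had fold changes between -0.18 and 0.18 on the log2 scale, with 3 above 0 and 3 below, and none of the 6 separated the groups. MCM7, which had the highest level per length of the 6, was at 832, 726 and 670 CPM in Control and at 830, 693 and 794 CPM in the clones. MCM6 was at 650, 595 and 529 CPM in Control and at 609, 533 and 424 CPM in the clones. Clone 3 was the lowest of the 6 libraries for MCM6 and clones 1 and 2 lay inside the Control range (log2 fold change -0.18 ± 0.15, edgeR adjusted p = 0.549). MCM4, singled out after its values were seen, was at 718, 677 and 590 CPM in Control and at 726, 406 and 677 CPM in the clones, so that clone 2 stood alone below all other libraries. MCM2 (mean 378 ± 32.5 CPM in Control and 393 ± 13.5 CPM in ΔNSPs), MCM3 (456 ± 13.2 and 449 ± 56.9 CPM) and MCM5 (246 ± 32.6 and 279 ± 1.06 CPM; SD, n = 3) completed the ring.

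The transcripts of the 6 subunits, which assemble into 1 ring, were also compared as shares of their summed level per length of the longest coding transcript. In the Control lines the SD of these shares ran from 0.033 percentage points for MCM2 to 1.32 for MCM3, which stood at 13.8%, 15.7% and 16.3%. MCM4 made up 22.4% ± 0.50 (SD, n = 3) of the summed MCM2-7 level per length in Control, 22.6% in clone 1 and 23.0% in clone 3, but 15.9% in clone 2. MCM6 made up 16.9% ± 0.28 in Control, 16.1% in clone 1 and 17.6% in clone 2, but 12.1% in clone 3. Thus 2 clones each had 1 subunit low against the other 5, and not the same subunit. No test was made of these shares, which were looked at after the levels were known. The size of each share depends on the length used. For MCM4 this was 3157 bases by the longest coding transcript and 6973 bases by merged exons.

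**Figure D2:**
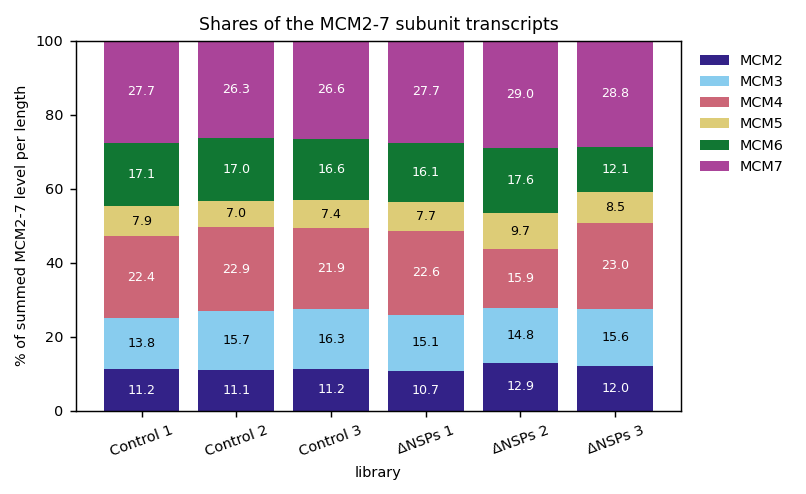
Stacked bars give the share of each subunit in the summed MCM2-7 level per length of the longest coding transcript, in percent, for each library. MCM4 is at 15.9% in ΔNSPs clone 2 and MCM6 at 12.1% in ΔNSPs clone 3, against Control means of 22.4% and 16.9%.

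Among the genes that turn the loaded ring into a moving helicase, 5 of 6 had a positive fold change (median 0.20 on the log2 scale), and none passed the test. CDC45, a partner of MCM2-7 and GINS in the active helicase, was at 54.9, 49.2 and 39.9 CPM in Control and at 54.5, 64.1 and 68.2 CPM in the clones. Clones 2 and 3 lay above all Control lines and clone 1 was level with Control line 1 (log2 fold change 0.38 ± 0.15, edgeR adjusted p = 0.248). The difference was of like size within set A (0.27) and within set B (0.29). MCM10, which helps activate the helicase, was at 42.9, 40.6 and 35.4 CPM in Control and at 45.2, 43.4 and 50.8 CPM in the clones, without overlap (0.23 ± 0.12, edgeR adjusted p = 0.349).
The 4 GINS subunits bind MCM2-7 as a single complex, and their estimates were not all of the same sign. GINS3 was at 26.8, 26.8 and 24.6 CPM in Control and at 33.8, 33.0 and 26.9 CPM in the clones, with clone 3 barely above Control lines 1 and 2 (log2 fold change 0.26 ± 0.13, edgeR adjusted p = 0.325). GINS1, the GINS subunit with the highest level per length, was at 181, 202 and 177 CPM in Control and at 200, 179 and 158 CPM in the clones (-0.06 ± 0.12). GINS2 and GINS4 had means of 62.1 ± 8.54 and 39.4 ± 2.53 CPM in Control and 68.0 ± 12.7 and 44.1 ± 7.62 CPM in ΔNSPs (SD, n = 3).

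The polymerases and primase held both of the members that were lower in every clone. POLD1, the catalytic subunit of polymerase δ, which copies the lagging strand (GRCh38 chr19:50384204-50418016), was at 311, 312 and 314 CPM in the Control lines and at 288, 187 and 204 CPM in clones 1 to 3. The Control lines were nearly identical, clone 1 lay somewhat below them and clones 2 and 3 were far below. The log2 fold change was -0.46 ± 0.16 (edgeR adjusted p = 0.216; DESeq2 adjusted p = 0.104). Without clone 1 it was -0.68 (edgeR adjusted p = 0.0185), the only setting of those tried in which a member passed the test; that fit called 6.17% of its 15050 tested genes, and 3.13% as lower. Within set A, POLD1 differed by -0.67, and within set B by -0.12. POLD2, another δ subunit, was at 348, 304 and 336 CPM in Control and at 379, 269 and 290 CPM in the clones. Clones 2 and 3 lay below every Control line, as for POLD1, but clone 1 lay above them (-0.07 ± 0.14; -0.24 without clone 1, -0.32 within set A and 0.25 within set B). POLD3 had means of 54.5 ± 4.79 and 51.3 ± 3.19 CPM.

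PRIM1, the primase subunit that makes the RNA part of the primer (GRCh38 chr12:56731596-56752373), was at 43.2, 39.0 and 40.3 CPM in Control and at 37.6, 26.6 and 32.0 CPM in the clones. All 3 clones lay below all 3 Control lines, clone 1 by the least (log2 fold change -0.35 ± 0.14, edgeR adjusted p = 0.267; -0.56 within set A and -0.07 within set B). Of the exon bases of PRIM1, 21.6% are shared with other annotated genes, which makes its values less certain. POLA1, the catalytic subunit of polymerase α, which extends these primers, was at 86.9, 96.7 and 78.7 CPM in Control and at 120, 69.2 and 61.9 CPM in the clones. Clone 1 was the highest of the 6 libraries and clones 2 and 3 were the lowest, so the mean difference of -0.06 ± 0.24 describes none of the clones. POLA2, its regulatory subunit, had means of 47.8 ± 2.28 CPM in Control and 52.2 ± 4.20 CPM in ΔNSPs (SD, n = 3).
The catalytic subunit of polymerase ε, POLE, was the steadiest of the polymerases, at 103, 101 and 103 CPM in Control and at 106, 108 and 106 CPM in the clones. The groups did not overlap, yet the difference was only 0.06 ± 0.09 on the log2 scale (edgeR adjusted p = 0.739). POLE2, its second subunit, was at 21.7, 20.9 and 21.7 CPM in Control and at 24.6, 25.8 and 24.0 CPM in the clones, again with no overlap (0.21 ± 0.11, edgeR adjusted p = 0.365). The leading-strand and lagging-strand catalytic subunits thus had estimates of different sign, a contrast that was not tested.

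**Figure D3:**
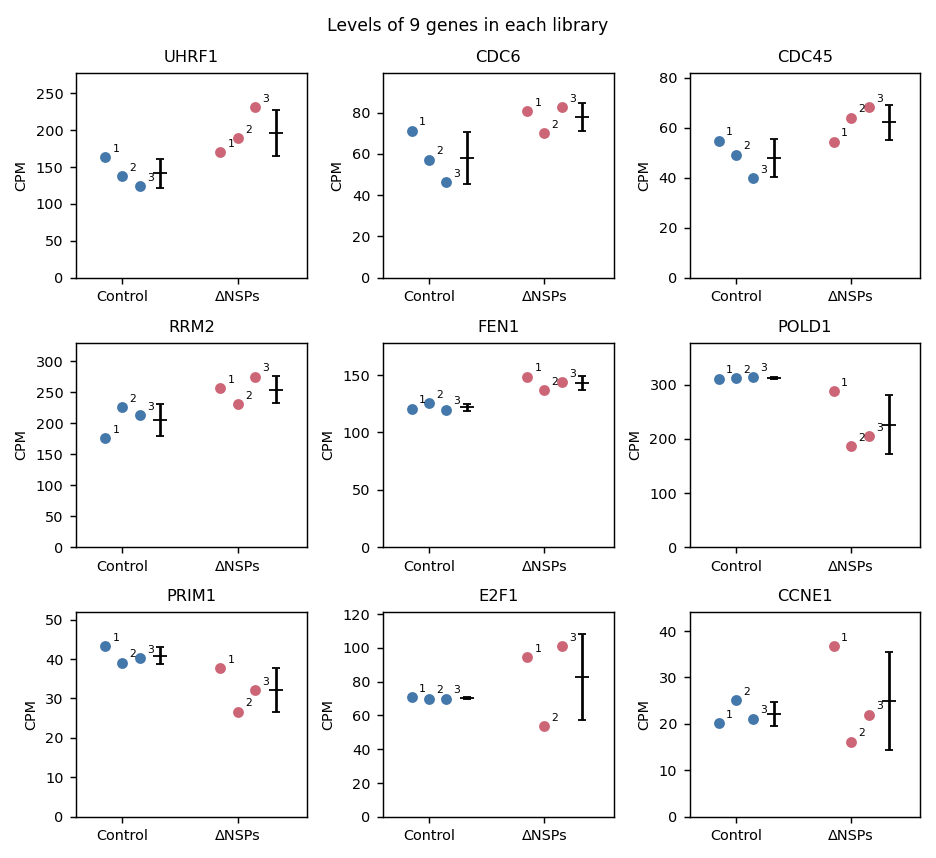
CPM of 9 members in each library, with the clone or line number beside each point; the bar gives the group mean and its SD (n = 3), and every axis starts at 0. UHRF1, RRM2 and FEN1 show every clone above every Control line, POLD1 and PRIM1 every clone below, and E2F1 and CCNE1 show clones on both sides of the Control lines.

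PCNA, the sliding clamp, was at 691, 705 and 667 CPM in Control and at 793, 741 and 709 CPM in the clones. Every clone lay above every Control line by a small margin (log2 fold change 0.12 ± 0.09, edgeR adjusted p = 0.511). Reads of PCNA can be shared with its named pseudogenes, of which 1 of 3 stood in the table. RFC1, the large subunit of the replication factor C complex that loads the clamp, was at 140, 152 and 138 CPM in Control and at 143, 82.5 and 119 CPM in the clones. Clone 2 was far below the rest, clone 3 somewhat below and clone 1 inside the Control range (-0.32 ± 0.19, edgeR adjusted p = 0.396). The 4 small subunits, RFC2 to RFC5, had log2 fold changes from -0.08 to 0.03. Clone 2 was the lowest library also for RFC2 (86.1 CPM, against 95.6 to 106 CPM in Control), RFC4 (50.5 against 56.1 to 58.5 CPM) and RFC5 (41.6 against 42.1 to 48.3 CPM), while clone 1 was the highest library for all 3 of these.

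Single-strand binding and strand joining genes were mostly level. FEN1, the nuclease that trims the flaps of Okazaki fragments (GRCh38 chr11:61792637-61797244), was at 121, 125 and 120 CPM in Control and at 148, 137 and 144 CPM in the clones. Every clone lay above every Control line, with means of 122 ± 2.91 and 143 ± 5.80 CPM (SD, n = 3), and the log2 difference was 0.21 within set A and 0.28 within set B. The log2 fold change over all 6 libraries was 0.23 ± 0.09 (edgeR adjusted p = 0.253). RPA2, a subunit of the complex that coats single-stranded DNA, was at 140, 137 and 138 CPM in Control and at 151, 135 and 138 CPM in the clones (0.03 ± 0.09). RPA1, RPA3 and LIG1, the ligase that seals Okazaki fragments, had log2 fold changes of 0.01, -0.09 and -0.01.

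The nucleotide supply genes had a summed level of 1299 ± 20.6 CPM in Control and 1446 ± 107 CPM in ΔNSPs (SD, n = 3). None of the 5 passed the test, and 3 of them, RRM2, TYMS and DUT, had every clone above every Control line, as had 12.2% of all tested genes. RRM2, the S phase subunit of ribonucleotide reductase (GRCh38 chr2:10120698-10131419), was at 176, 226 and 214 CPM in Control and at 256, 231 and 275 CPM in the clones. Clone 2 lay only just above Control line 2 (log2 fold change 0.31 ± 0.12, edgeR adjusted p = 0.26; 0.52 within set A and 0.22 within set B). TYMS, which makes thymidylate, was at 326, 309 and 298 CPM in Control and at 330, 336 and 401 CPM in the clones, and clone 3 set most of the difference (0.19 ± 0.11, edgeR adjusted p = 0.38).
DUT, which removes dUTP from the pool, was at 538, 465 and 487 CPM in Control and at 541, 557 and 596 CPM in the clones, with clone 1 near Control line 1 (0.19 ± 0.10, edgeR adjusted p = 0.359). The larger subunit of the reductase, RRM1, pointed the other way, with means of 214 ± 19.6 CPM in Control and 198 ± 20.5 CPM in ΔNSPs, and thymidine kinase TK1 was at 71.6 ± 6.27 and 73.3 ± 3.33 CPM. Some of these values are less certain for 1 gene. Of the exon bases of TYMS, 46.6% are shared with other annotated genes, as are 20.2% of those of RRM2, and DUT has 8 named pseudogenes.

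All 6 regulators and chromatin assembly genes had positive fold changes (median 0.26 on the log2 scale), none past the test, and their summed level was 544 ± 36.0 CPM in Control and 651 ± 90.8 CPM in ΔNSPs (SD, n = 3). UHRF1, which brings maintenance DNA methylation to newly copied DNA (GRCh38 chr19:4903080-4962154), was at 163, 138 and 124 CPM in Control and at 170, 189 and 231 CPM in the clones. Every clone lay above every Control line, clone 1 by little and clone 3 by much. The log2 fold change was 0.47 ± 0.15, with the lowest adjusted p of the members (edgeR 0.198; DESeq2 0.0856), and it was 0.36 within set A and 0.37 within set B. CHAF1A and CHAF1B, subunits of the chromatin assembly factor that deposits histones behind the fork, had means of 85.9 ± 17.2 and 38.9 ± 4.70 CPM in Control and 104 ± 16.8 and 48.3 ± 6.99 CPM in ΔNSPs.

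E2F1 and CCNE1 were scattered over the clones, and E2F1 was tight in Control. E2F1, the transcription factor that drives many S phase genes, was at 70.8, 69.9 and 70.0 CPM in Control and at 94.4, 53.8 and 101 CPM in the clones. Clones 1 and 3 lay above and clone 2 below the Control lines (log2 fold change 0.24 ± 0.21, edgeR adjusted p = 0.578). CCNE1, the cyclin that activates CDK2 at S phase entry, was at 20.2, 25.1 and 21.1 CPM in Control and at 36.7, 16.1 and 22.0 CPM in the clones. As with E2F1, clone 1 was above and clone 2 below every Control line (0.17 ± 0.28; -0.22 without clone 1). SLBP, which binds the stem-loop of histone mRNAs, was at 174, 202 and 180 CPM in Control and at 213, 163 and 206 CPM in the clones, where clone 2 was again the lowest library.

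By library, the members did not form 2 groups that followed the labels. Clone 1 was the highest library for 15 of the 46 genes and clone 3 for 14, beside 16.1% and 19.7% of all tested genes. Clone 2 was the lowest for 18 and Control line 3 for 16, beside 20.9% and 15.7% of all tested genes. The median deviation of the members from their own 6-library mean was 0.02, -0.02 and -0.09 on the log2 scale in Control lines 1 to 3. In the clones it was 0.12, -0.06 and 0.06, and over all tested genes it stayed between 0.006 and 0.01 in every library. In tested genes of the same CPM range it was lowest in Control line 3 (-0.03) and highest in clone 3 (0.03). Clone 2 and Control line 3 thus sat on the low side for these genes and clones 1 and 3 on the high side. The summed level of the 46 genes was 8834, 8523 and 8022 CPM in Control and 9207, 7890 and 8791 CPM in the clones, means of 8460 ± 410 and 8629 ± 673 CPM (SD, n = 3). The summed level of the 22 mitosis genes did not follow the same order: it was lowest in Control line 1 and clone 1 (4349 and 4363 CPM) and highest in clone 3 (5110 CPM).

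**Figure D4:**
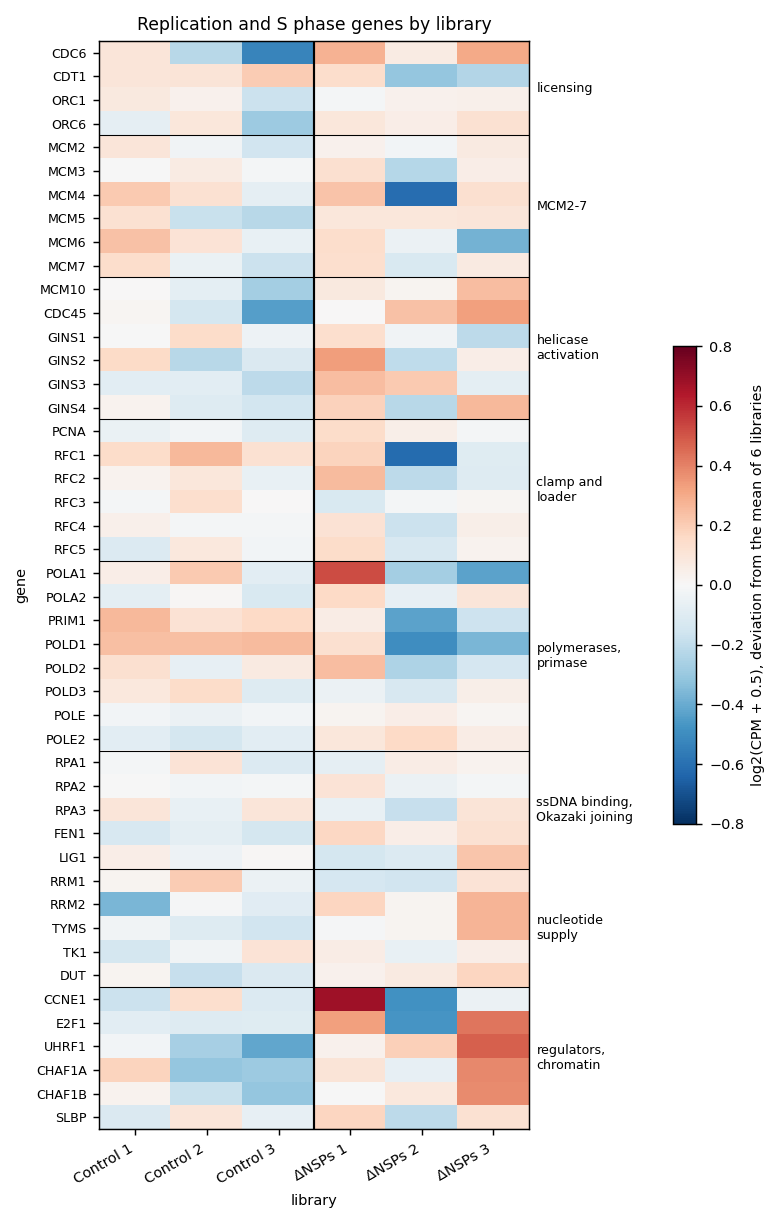
Each cell is the deviation of a gene's log2(CPM + 0.5) in 1 library from its mean over the 6 libraries, with genes grouped by role. Clone 1 is mostly above the mean and clone 2 and Control line 3 mostly below, and the darkest cells are single genes in single clones, such as MCM4, RFC1 and POLD1 in clone 2 and CCNE1 in clone 1.

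The members varied more among clones than among Control lines. The median SD of log2 CPM was 0.104 over Control lines and 0.153 over clones, and it was larger over the clones for 31 of the 46 genes. In tested genes of the same CPM range the medians were 0.111 and 0.165, and 68.9% had the larger SD over the clones, so the members shared this with other genes. E2F1 showed the contrast most plainly among the upstream regulators, with an SD of 0.0104 over Control lines and 0.495 over clones. POLD1 had the smallest SD of all members over Control lines (0.00791), against 0.33 over clones. MCM5 was the reverse, at 0.184 over Control lines and 0.0055 over clones.

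Where a clone stood apart for a single member, the genes next to it on the chromosome were examined. For each member the neighbours were all tested genes within 10 Mb with a mean of at least 8 CPM, 26 to 284 genes, and a neighbourhood was called shifted in a clone when its median log2 ratio to the Control mean passed 0.3 either way. This was so for 10 of the 46 members (21.7%), beside 18.7% of 10288 tested genes at this level, in 12 cases of a gene in a clone. The member and its neighbours had the same sign in 12 of 12 such cases, and in 90.2% of 2472 cases over all genes. Gene and neighbours stood respectively at -0.70 and -0.48 for MCM4 in clone 2, at -0.48 and -0.57 for MCM6 in clone 3, and at -0.79 and -0.37 for RFC1 in clone 2. POLA1 was at -0.34 in clone 2 and -0.49 in clone 3, with its X-linked neighbours at -0.67 and -0.73. In these clones the low values of MCM4, MCM6, RFC1 and POLA1 thus stood in stretches whose median was low too. RFC1 in clone 3, at -0.27, did not, with neighbours at -0.003. The X-linked neighbours of POLA1 also differed among the Control lines, at -0.28, 0.18 and 0.07 in lines 1 to 3. Those of MCM4 stayed between -0.02 and 0.03 in the Control lines.
On the high side, UHRF1 was at 0.70 and CHAF1A at 0.51 in clone 3. These genes share a stretch of chromosome 19 whose median in that clone was 0.48. CHAF1B was at 0.53 in clone 3 with neighbours at 0.40, and at 0.23 in clone 2 with neighbours at 0.35. In clone 2, DUT was at 0.16 with neighbours at 0.45, and GINS4 at -0.15 with neighbours at -0.50. RFC3 was the only member with a shifted neighbourhood in clone 1, at -0.17 with neighbours at -0.31. The neighbours of UHRF1 stood at 0.15, -0.14 and -0.04 in Control lines 1 to 3, and those of CHAF1B at 0.15, -0.09 and -0.08. For the neighbours of POLA1, UHRF1 and CHAF1B, Control line 1 thus lay on the same side as clones 2 and 3. These libraries together form set A. What sets the level of these stretches was not tested.

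**Figure D5:**
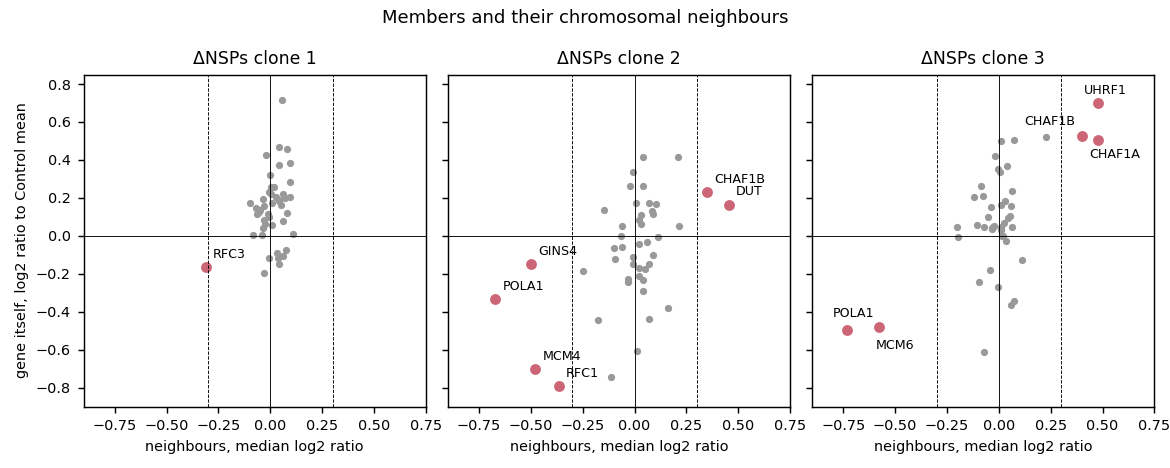
For each ΔNSPs clone, the log2 ratio of each of the 46 genes to its Control mean is plotted against the median log2 ratio of the tested genes within 10 Mb; dashed lines mark 0.3 either way. The 12 named points beyond the dashed lines have the sign of their neighbours, and POLD1 in clone 2, at -0.74, lies among the unnamed points with neighbours at -0.12.

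POLD1 and PRIM1 differed from these. In clones 2 and 3, POLD1 was at -0.74 and -0.61 while its neighbours were at -0.12 and -0.07. PRIM1 was at -0.61 and -0.34 while its neighbours were at 0.01 and 0.07. CDC6, CDC45, FEN1 and RRM2 had neighbours whose medians lay between -0.02 and 0.10 in the 3 clones. Of the 36 members with no shifted neighbourhood, 6 had an unadjusted p under 0.05, beside 17.8% of all tested genes and 21.7% of those in the same CPM range. In 10 of the 36 the groups did not overlap, beside 23.9% and 27.4%, so both counts lay near the background. The median SD of log2 CPM over the 6 libraries was 0.137 in these 36 members, against 0.255 in the 10 with a shifted neighbourhood.

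Levels of different genes were compared per length, as CPM per kilobase of the longest coding transcript averaged over the 6 libraries. PCNA was the most abundant at 528 ± 32.5 (SD over 6 libraries), then MCM7 at 256 ± 23.9, DUT at 247 ± 22.2, TYMS at 201 ± 21.7, MCM4 at 200.3 ± 38.2 and POLD2 at 198 ± 25.1. MCM7 and DUT did not differ beyond their spread, nor did TYMS, MCM4 and POLD2, while PCNA stood clear of all others. The 6 MCM2-7 subunits were all among the first 13 genes, with MCM5 the last of them at 74.3 ± 7.66. CCNE1 at 11.5 ± 3.46, GINS4 at 10.9 ± 1.49 and CHAF1B at 9.74 ± 1.66 closed the order. Only 9 of the 45 neighbouring pairs in the order differed by more than the larger SD. With merged exons as the length, PCNA (488) and MCM7 (173) also led. The order below them changed, with MCM4 in place 8 (90.7) and MCM5 in place 21 (35.8).

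Of 40 further replication genes, which are not among the 46, none passed edgeR's adjusted threshold, and their median log2 fold change was 0.06. At an unadjusted p under 0.05, 6 were higher (CCNE2, TIPIN, CLSPN, POLE4, DONSON and ASF1A) and 1 was lower (ATAD5), together 17.5% of the 40, against 17.8% of all tested genes. DESeq2, which called 3.98% of its genes, called TIPIN and DONSON. TIPIN, part of the fork protection complex, was at 34.2, 29.5 and 25.5 CPM in Control and at 39.1, 51.5 and 46.05 CPM in the clones, every clone above every Control line (log2 fold change 0.62 ± 0.15, edgeR adjusted p = 0.171, DESeq2 adjusted p = 0.0287). DONSON, which helps assemble the helicase at origins, was at 77.5, 68.8 and 63.6 CPM in Control and at 81.5, 116 and 109 CPM in the clones (0.55 ± 0.15, edgeR adjusted p = 0.178, DESeq2 adjusted p = 0.048). Without clone 1, edgeR called 3 of the 39 then tested (7.69%, beside 6.17% of all genes), TIPIN, DONSON and the histone chaperone ASF1A. These shares lay near those of all genes. POLD4 and RNASEH2A were listed at 0.0852 to 1.43 CPM in every library, and 21.3% and 30.8% of their exon bases are shared with other genes.

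Among 15 tested genes of the E2F and RB families, none passed the adjusted threshold of edgeR or DESeq2, and an unadjusted p under 0.05 was reached by 2 that were higher and 2 that were lower (26.7%, beside 17.8% of all tested genes). Without clone 1, edgeR called 4 of the 15 (26.7%, beside 6.17% of all genes in that fit). E2F8, MYBL2 and LIN9 were higher and TFDP2 was lower. That fit keeps only clones of set A, so group and library set are not separated in these calls. The largest difference was in TFDP2, a dimer partner of E2F proteins, at 37.4, 44.0 and 49.0 CPM in Control and at 37.3, 24.8 and 25.4 CPM in the clones. Clone 1 lay just below Control line 1 and clones 2 and 3 far below (log2 fold change -0.58 ± 0.19, edgeR adjusted p = 0.2).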

How the data were processed

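RNA-seq was made from total RNA of 3 Control lines and 3 ΔNSPs clones of U937 cells, grouped and numbered by the sample labels. The values are raw counts, 1 table for all libraries, which the authors deposited by Ensembl gene and in which every gene had at least 10 counts over the 6 libraries. HISAT2 2.0.0 and HTSeq 0.11.1, with FastQC, SAMtools 1.5.9 and the GRCh38.p12 build, are named in the submitters' processing notes. Neither strand setting nor annotation release is given in the sources used here, so reads of overlapping genes on opposite strands may have been counted together; 21 of the 46 members share exon bases with another gene.

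Symbols, positions and exons came from GENCODE v29 (GRCh38), with a match for 18771 of 18798 identifiers, and promoter sequence from RefSeq (GRCh38.p14). Counts were tested with edgeR 4.0.16 in R 4.3.3 (TMM, filterByExpr by group, quasi-likelihood, no covariate), two-sided, with Benjamini-Hochberg adjustment over 14797 genes at 0.05; the procedure was first tested on simulated data. CPM uses TMM-scaled totals, and plots and library deviations use log2(CPM + 0.5). No libraries of a group agreed within sampling noise (chi-square per degree of freedom 7.64 at the lowest). Floors of 3 counts cover counting error only, as reads that carry no molecular identifiers need not be separate molecules.

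Alternatives were DESeq2 1.42.0, limma 3.58.1 (voom with quality weights), other size factors and filters, a replicate block and leaving out each library. A term for the library sets, and the longest coding transcript as length, were added after the data were seen. Values in every library are given for members past an adjusted p of 0.05, members whose groups do not overlap, in each of 8 roles the member with the highest level per length and the one with the largest fold change, and the 5 with the largest SD of log2 CPM. From each other list the same threshold or the largest fold change chose the gene. The members and lists were chosen with earlier results of these data known.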

Additional observations from a re-analysis of the deposited data

How the results depend on the processing

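Over 14 alternatives, the median log2 fold change of the 46 members stayed between 0.0227 and 0.0948, and 18 of the 25 members given with all library values kept their sign in each. The number of genes called over all tested genes was 3; it was 515 with DESeq2, 0 with the replicate block and 0 to 928 when 1 library was left out, 928 without clone 1. Of the members, 0 to 1 were called when 1 library was left out (POLD1, without clone 1), and of the 40 other replication genes 0 to 3 (3 without clone 1) and 2 with DESeq2. The number of members at an unadjusted p under 0.05 was 4 with the block and 9 with limma voom. It was 0 to 8 when 1 library was left out, 0 without Control line 3. The matching shares of all tested genes are not given for these settings, so these counts do not set the members apart from other genes. The sign turned in 7 of the 25 members. When 1 library was left out, the log2 fold change ran from -0.0139 to 0.1444 for MCM7, from -0.1578 to 0.0208 for GINS1, from -0.2432 to 0.0246 for POLD2, from -0.0228 to 0.0644 for RPA2, from -0.0151 to 0.1756 for SLBP, from -0.2233 to 0.4099 for CCNE1 and from -0.423 to 0.1159 for POLA1. CCNE1 was at -0.0222 with limma voom, and POLA1 at 0.0288 with a term for the library sets. The cause of these changes was not tested. Replicate numbers did not pair the samples: the deviations of Control lines and clones of the same number correlated at -0.43, -0.16 and -0.14, so the block has no basis in the design. With 3 libraries a group the 95% interval reached 0.28 either side of the log2 fold change for the median member.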

Other observations

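Among 12 CDK inhibitors and G1 cyclins, CCND3, the D-type cyclin that partners CDK4 and CDK6 in G1 phase, was at 94.8, 112 and 108 CPM in Control and at 171, 220 and 179 CPM in clones 1 to 3. Every clone lay well above every Control line, at a log2 fold change of 0.85 ± 0.13, which edgeR did not call (adjusted p = 0.145) and DESeq2 did (adjusted p = 1.3e-05). Without clone 1 edgeR called 3 of the 12 genes, all higher (25%, beside 6.17% of all genes in that fit). They were CCND3 (edgeR adjusted p = 0.0178), CDKN2C and CDKN2D. The clones left in that fit are both of set A, so group and library set are not separated there. The partner kinase CDK4 was at 238 to 265 CPM in Control and 268 to 277 CPM in ΔNSPs, and CDK6 at 367 ± 19.7 and 339 ± 61.1 CPM (SD, n = 3). CCND2 was at 62.0 ± 1.91 and 59.9 ± 10.8 CPM. CDKN2C, an inhibitor of these kinases, stood at 61.0, 54.8 and 58.0 CPM in Control and at 64.1, 213 and 88.9 CPM in the clones. Its highest value was in clone 2 (log2 fold change 1.08 ± 0.39, edgeR adjusted p = 0.228), and this gene was singled out after its values were seen. Over the 12 genes the median log2 fold change was -0.06.

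Of 26 replication-dependent histone genes looked up, 20 were in the table and 13 had enough counts to be tested. The summed level of the 20 was 32.5 to 43.3 CPM in Control and 32.1 to 57.3 CPM in ΔNSPs. What sets the level of these counts was not tested. Among the 13 tested, HIST2H2AC had the largest difference, at 2.30, 1.16 and 1.56 CPM in Control and at 4.07, 3.33 and 3.29 CPM in the clones (1.09 ± 0.32, edgeR adjusted p = 0.183). Among 22 mitosis genes, edgeR and DESeq2 called none, and an unadjusted edgeR p under 0.05 was reached by 2 that were higher and 1 that was lower (13.6%, beside 17.8% of all tested genes). Without clone 1 edgeR called UBE2C, AURKA and CENPF as higher (13.6%, beside 6.17% of all genes in that fit). Group and library set are not separated in these calls either. UBE2C, a ubiquitin-conjugating enzyme of mitotic exit, was at 23.0, 29.02 and 28.2 CPM in Control and at 29.2, 45.5 and 69.2 CPM in the clones (0.84 ± 0.28, edgeR adjusted p = 0.209), with clone 1 just above the Control lines.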
